A study of Mus musculus with 10 samples.

Results

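Complex I, the NADH:ubiquinone oxidoreductase of mitochondria, was followed through 47 of the 56691 genes in the deposited count table. Members were genes whose mouse symbol matched Nduf followed by a, b, c, s, v, ab or af and a number, and that held at least 10 counts in 5 or more of the 10 libraries. Of 49 matching symbols, Ndufs6b and Ndufa11b, both annotated as processed pseudogenes, missed that minimum. The 47 members comprised 38 subunits, the 8 assembly factors Ndufaf1 to Ndufaf8, and Ndufb4c, a processed pseudogene.

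The libraries held ribosome-associated mRNA of dopaminergic neurons from the ventral tegmental area (VTA), which sends dopamine to forebrain reward circuits. All mice were male C57BL/6 with the genotype given as WT, and in all of them the neurons carried the NBL10-HA construct, through which the mRNA was enriched. Tissue came from 5 control libraries, labelled Normal, and from 5 libraries of mice held in acute restraint for 30 minutes. The study set out to follow signalling changes in these neurons after restraint. Age, the promoter or Cre behind the construct, and any pooling of animals are not given in the sources used here. The labels do not say that libraries came from separate animals, so p-values measure the spread between these libraries, which may be technical.

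Complex I takes electrons from NADH, passes them through flavin and iron-sulphur centres to ubiquinone, and pumps protons across the inner mitochondrial membrane. Its N module oxidises NADH, its Q module reduces ubiquinone, and its proximal and distal membrane arms carry the proton path. A small catalytic core is split between nuclear genes and the mt-Nd genes of the mitochondrial genome, and accessory subunits surround it. Assembly factors help to build the enzyme and are not part of the finished complex. Midbrain dopamine neurons fire spontaneously and are known to be sensitive to complex I inhibitors such as rotenone and MPP+.

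Libraries held between 56082358 and 86584968 counts, with both mates of a pair counted. Restraint 1 stood apart on the first principal component (92.1 against -19.2 to 4.08 in the other 9 libraries) and had the fewest genes with a count (20936). All 10 dopamine neuron markers, Th and Slc6a3 among them, were above 0 in every library. Their summed level ran from 1047 to 1559 CPM (counts scaled to library size) in controls and from 1244 to 1753 CPM after restraint. Of these 10 markers, 5 were higher after restraint at an unadjusted p under 0.05, against 5.64% of all genes. The groups did not overlap for En1 (log2 0.57 ± 0.11, edgeR adjusted p = 0.0662), as for 1.25% of all genes in that direction. Slc6a3 (-0.03) was among the 2 markers below 0, and Th (0.21) did not pass the unadjusted threshold. The 8 astrocyte markers summed to between 5072 and 5806 CPM in controls and between 5569 and 6593 CPM after restraint. Gfap, an astrocyte filament gene, stood at 1919 ± 121 CPM (SD, n = 5) in controls and 2471 ± 316 CPM after restraint, without overlap. It was the only one of the 8 at an unadjusted p under 0.05, and 3 of them (Aldoc, Aldh1l1 and S100b) had values below 0, with a median of 0.11 over the list. Of 8 oligodendrocyte markers 3 were higher at an unadjusted p under 0.05 (median 0.12, sums of 1596 to 1947 CPM in controls and 1521 to 2124 CPM after restraint). All 6 vascular markers had values above 0 and 3 were higher at that threshold (median 0.35), from low sums of 9.26 to 14.6 CPM in controls and 11.5 to 19.8 CPM after restraint. Microglial, GABA neuron and glutamate neuron markers had 0 at that threshold, with sums of 22.3 to 35.0, 866 to 1224 and 395 to 431 CPM in controls and 22.3 to 30.4, 901 to 1261 and 341 to 478 CPM after restraint. No marker was at 0 in any library. The part of these other cells in the results on complex I was not tested.

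Most complex I genes had lower values after restraint, but none passed the test over the whole table. Of the 47 members, 40 had a log2 fold change (restraint minus control) below 0, against 50.4% of the 18440 genes tested. The median was -0.22 over the subunits and -0.08 over the assembly factors, beside -0.00 over all genes tested. No member was called lower or higher by edgeR's quasi-likelihood test at an adjusted p under 0.05, a threshold that called 0.0163% of all genes lower and 0.00542% higher. At an unadjusted p under 0.05, 17 members (36.2%) were lower, against 6.04% of all genes, and 0 members were higher, against 5.64%. DESeq2 called 9 members lower (19.1%), against 1.04% of all genes. In these bulk libraries of ribosome-associated mRNA, fewer cells of a type and less RNA per cell cannot be told apart. Nor can less of an mRNA on ribosomes or a difference in enrichment.

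**Figure D1:**
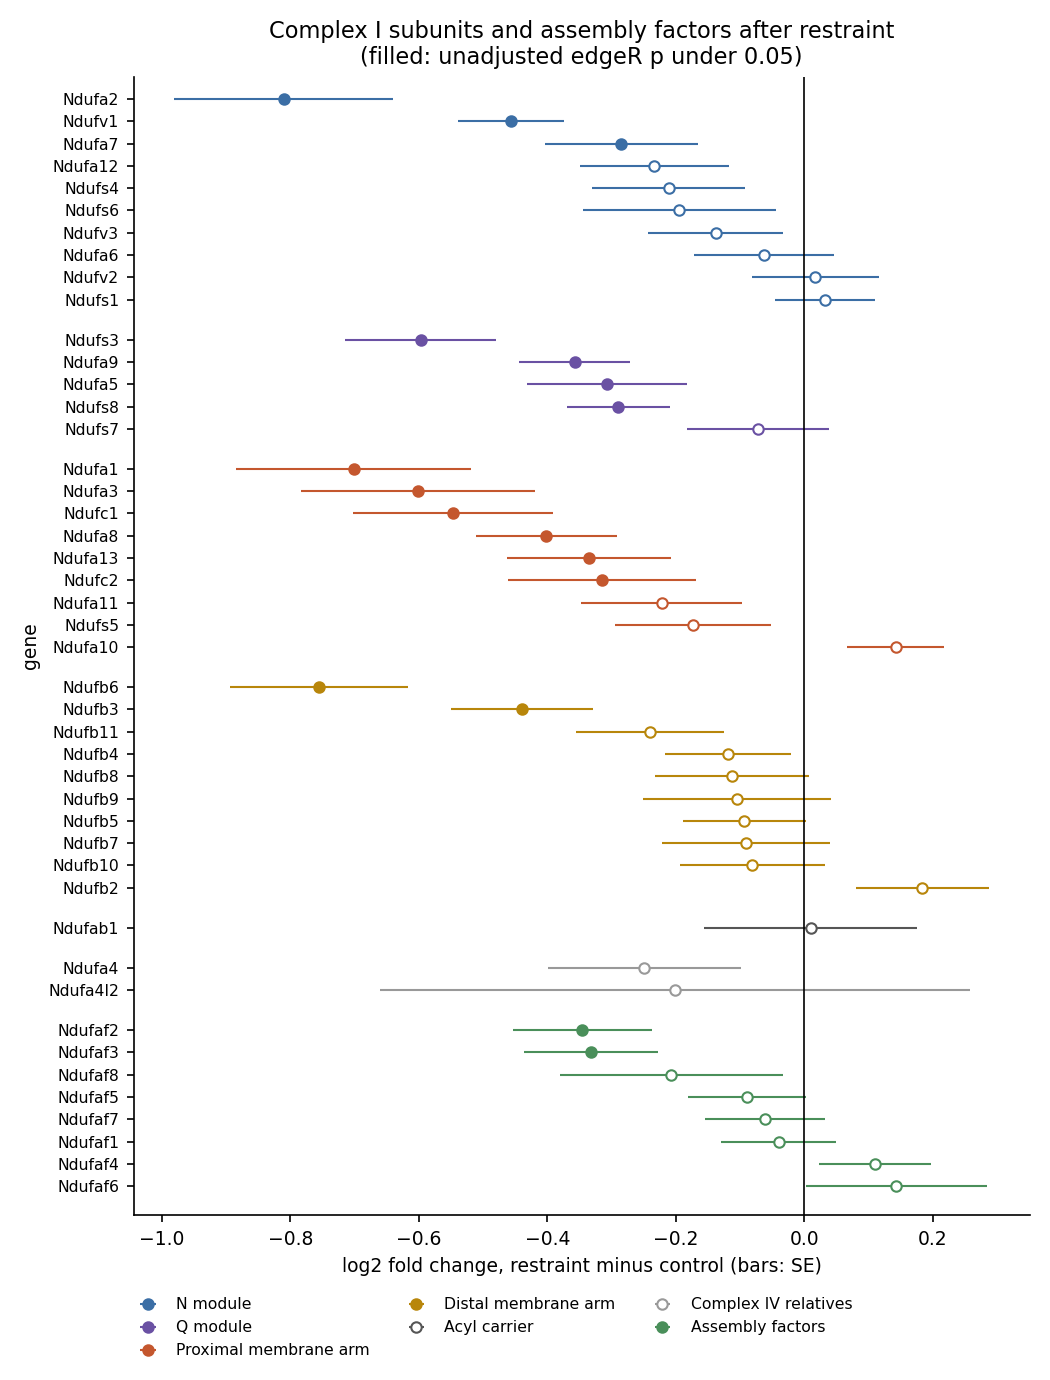
Log2 fold change (x axis, restraint minus control, bars are the SE of edgeR's fit) of 37 of the 38 subunits and the 8 assembly factors (y axis), grouped by module, with filled points at an unadjusted p under 0.05. Subunits extend from -0.81 (Ndufa2) to 0.18 (Ndufb2), and the Q module and proximal membrane arm hold the most filled points for their size.

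Among the nuclear core subunits, Ndufv1, Ndufs3 and Ndufs8 had lower values after restraint, and Ndufv2, Ndufs1 and Ndufs7 had values near 0. Ndufv1, which holds the NADH site and the flavin, stood at 214, 222, 231, 248 and 206 CPM in controls 1 to 5. It stood at 163, 166, 155, 145 and 188 CPM in restraint libraries 1 to 5, so that the groups did not overlap. Its log2 fold change was -0.46 ± 0.08 (SE, edgeR adjusted p = 0.0611, n = 5 per group). The gene lies at chr19:4057384-4062806 on the minus strand in the deposited table, whose annotation is GENCODE M30 (GRCm39).

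Ndufv2, the iron-sulphur partner of Ndufv1 in the N module, stood at 310, 264, 348, 343 and 338 CPM in controls and at 275, 377, 353, 287 and 329 CPM after restraint. The groups overlapped, and the log2 fold change was 0.02 ± 0.10 (edgeR adjusted p = 0.973). Ndufs1, which carries the further iron-sulphur centres of the N module, stood at 183, 146, 167, 177 and 173 CPM in controls and at 185, 169, 182, 161 and 168 CPM after restraint. Its log2 fold change was 0.03 ± 0.08 (edgeR adjusted p = 0.927), again with overlapping groups.

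In the Q module, Ndufs3, a core subunit of the matrix arm that binds no cofactor, stood at 164, 136, 166, 174 and 136 CPM in controls and at 95.5, 112, 91.9, 81.5 and 132 CPM after restraint. Every restraint library lay below every control, restraint 5 only just so. The log2 fold change was -0.60 ± 0.12 (edgeR adjusted p = 0.0747), and the gene lies at chr2:90724978-90735171 on the minus strand. Ndufs8, which carries iron-sulphur centres next to the quinone site, stood at 123, 131, 157, 130 and 132 CPM in controls and at 102, 113, 117, 104 and 115 CPM after restraint. These groups also did not overlap, with a log2 fold change of -0.29 ± 0.08 (edgeR adjusted p = 0.174) at chr19:3958863-3962774, minus strand.

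Ndufs7, which carries the iron-sulphur centre nearest to ubiquinone, stood at 210, 192, 265, 248 and 239 CPM in controls and at 185, 246, 246, 179 and 242 CPM after restraint (log2 -0.07 ± 0.11, edgeR adjusted p = 0.867). Its groups overlapped, with restraint 1 and 4 the lowest restraint libraries.

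Ratios within single libraries were picked after these values were seen, so they restate those values and are given with no test. The ratio of Ndufv1 to Ndufv2 CPM was 0.706 ± 0.087 (SD, n = 5) in controls and 0.509 ± 0.0718 after restraint. Controls ran from 0.609 to 0.842 and restraint libraries from 0.439 to 0.591. The ratio of Ndufs8 to Ndufs7 overlapped between groups (0.587 ± 0.0601 and 0.508 ± 0.0532).

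**Figure D2:**
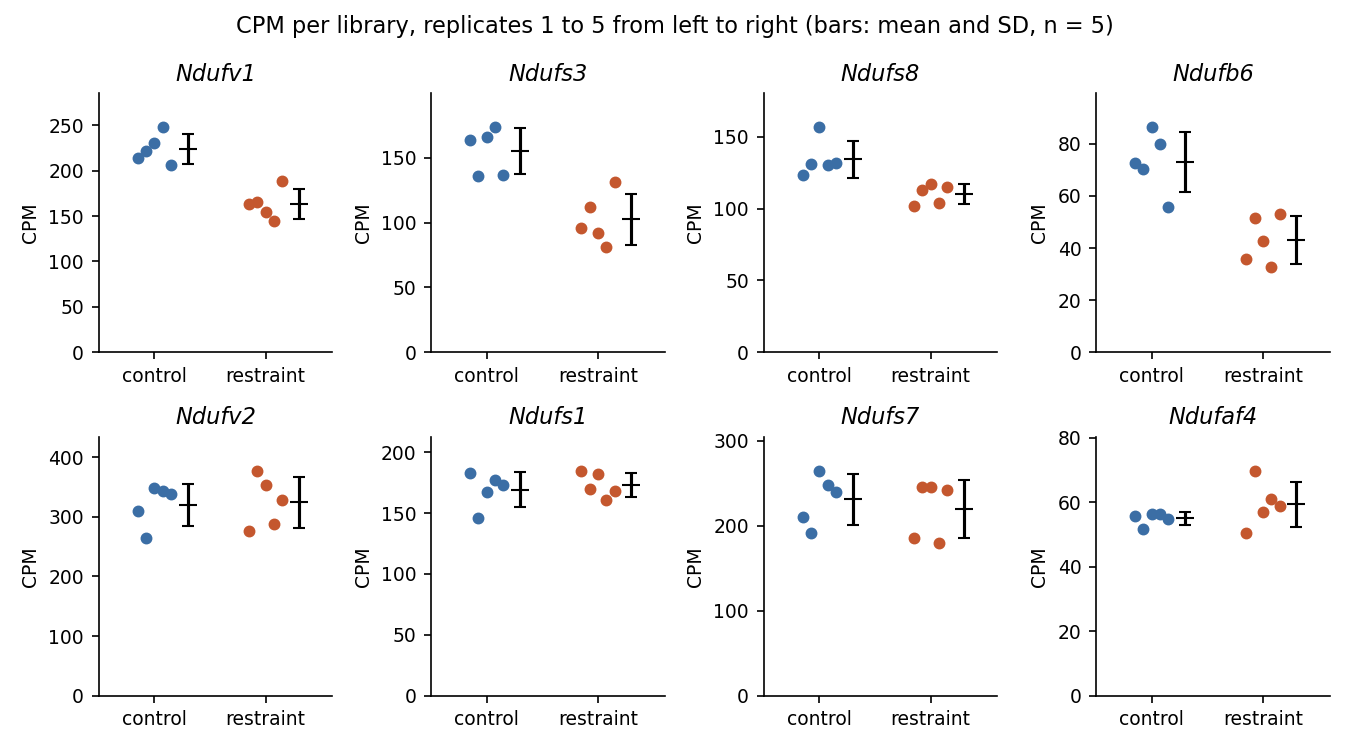
CPM (y axis, from 0) of 8 members in each control and restraint library (x axis), with the mean and SD (n = 5) beside the points. Ndufv1, Ndufs3, Ndufs8 and Ndufb6 show restraint libraries below all controls, while Ndufv2, Ndufs1, Ndufs7 and the assembly factor Ndufaf4 overlap.

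Across all members, 4 had every restraint library below every control, namely Ndufv1, Ndufs3, Ndufs8 and Ndufb6 (8.51%), against 1.36% of all genes. The proximal arm subunit Ndufa10 was the single member with the opposite arrangement, found in 1.25% of all genes. Ndufa10 stood at 153.7 to 183.0 CPM in controls and at 183.4 to 212.4 CPM after restraint (log2 0.14 ± 0.08, edgeR adjusted p = 0.492).

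Among the 10 N module genes, 8 had values below 0 and the median was -0.20. Ndufa2, Ndufv1 and Ndufa7 were lower at an unadjusted p under 0.05 (30%, against 6.04% of all genes). Ndufa2, an accessory subunit with a thioredoxin-like fold, stood at 150, 140, 177, 150 and 102 CPM in controls. After restraint it stood at 73.2, 115, 70.4, 54.5 and 96.5 CPM. Restraint 2 lay above the lowest control, and the log2 fold change was -0.81 ± 0.17 (edgeR adjusted p = 0.0826). Ndufa2 shares 11.5% of its exon bases with Tmco6 on the other strand, which held 5135 counts in all against 77185, and the counting did not use strand. Ndufs4 and Ndufs6, accessory subunits mutated in human complex I deficiency, had log2 fold changes of -0.21 ± 0.12 and -0.19 ± 0.15.

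The 6 genes of the Q module had a median of -0.30. Ndufs3, Ndufs8, Ndufa9 and Ndufa5 were lower at an unadjusted p under 0.05 (66.7%, against 6.04% of all genes). Ndufa9, which sits at the junction of the Q module and the membrane arm, stood at 152, 139, 138, 142 and 120 CPM in controls and at 112, 110, 96.3, 98.2 and 123 CPM after restraint. Restraint 5 lay just above the lowest control, control 5 (log2 -0.36 ± 0.09, edgeR adjusted p = 0.129). Ndufa5, a matrix-arm accessory subunit, had a log2 fold change of -0.31 ± 0.13.

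In the proximal membrane arm, 8 of 9 genes were below 0 with a median of -0.33. At an unadjusted p under 0.05, 6 were lower (66.7%, against 6.04% of all genes). Ndufa1, a small single-span membrane subunit, stood at 76.5, 68.4, 92.4, 77.8 and 51.1 CPM in controls and at 32.0, 63.4, 44.9, 31.0 and 53.9 CPM after restraint (log2 -0.70 ± 0.18, edgeR adjusted p = 0.159). Ndufa8, which faces the intermembrane space, stood at 156, 138, 184, 170 and 139 CPM in controls and at 109, 137, 107, 100.4 and 143 CPM after restraint (log2 -0.40 ± 0.11, edgeR adjusted p = 0.166). Both genes overlapped between groups, through restraint 2 and 5 for Ndufa1 and through restraint 5 for Ndufa8. Ndufa3, Ndufc1, Ndufa13 and Ndufc2 were the other 4, with log2 fold changes of -0.60, -0.55, -0.33 and -0.31. Ndufa13, also called GRIM-19, shares 30.0% of its exon bases with Tssk6, which held 260 counts in all against 121155 for Ndufa13.

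The distal membrane arm had 9 of 10 genes below 0, at a smaller median of -0.11. At an unadjusted p under 0.05, 2 were lower (20%, against 6.04% of all genes). Ndufb6 stood at 72.6, 70.2, 86.4, 79.9 and 55.7 CPM in controls and at 36.0, 51.7, 42.6, 32.6 and 53.1 CPM after restraint. The groups did not overlap, although control 5 and restraint 5 lay close (log2 -0.76 ± 0.14, edgeR adjusted p = 0.0611). Ndufb6 lies at chr4:40270591-40279421 on the minus strand and shares 39.0% of its exon bases with Smim27 on the other strand, which held 88 counts in all against 39739.

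Ndufb3, a small subunit of the distal membrane arm, stood at 149, 124, 157, 156 and 122 CPM in controls and at 102, 129, 107, 81.7 and 103 CPM after restraint. Restraint 2 reached into the control range (log2 -0.44 ± 0.11, edgeR adjusted p = 0.144). The other 8 genes of this arm lay between -0.24 (Ndufb11) and 0.18 (Ndufb2). Ndufb11 shares 12.9% of its exon bases with Rbm10 (36364 counts against 94501), Ndufb5 12.3% with Mrpl47 (17113 against 103734) and Ndufb9 19.5% with Gm49356 (0 counts). Reads of these stretches may be missing or, for Ndufb11 and Ndufb5, shared. With 0 counts for Gm49356, no read was assigned to both it and Ndufb9. Ndufb2 was the highest of all members, at 26.4 to 34.5 CPM in controls and 28.3 to 41.4 CPM after restraint (edgeR adjusted p = 0.527).

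Ndufab1, the mitochondrial acyl carrier protein that also serves fatty acid and iron-sulphur cluster synthesis, stood at 52.1, 43.2, 69.5, 63.4 and 66.1 CPM in controls. After restraint it stood at 44.5, 54.9, 55.8, 51.1 and 89.9 CPM, with restraint 5 far above the rest. Its log2 fold change of 0.01 ± 0.17 (edgeR adjusted p = 0.991) became -0.20 without restraint 5.

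Ndufa4 was named as a complex I subunit and is now counted with complex IV, and Ndufa4l2 is its relative known as a target of hypoxia signalling. Ndufa4 stood at 447, 359, 539, 532 and 459 CPM in controls and at 303, 496, 409, 277 and 481 CPM after restraint, with overlapping groups (log2 -0.25 ± 0.15, edgeR adjusted p = 0.562). Ndufa4l2 was near the floor, at 0.439, 0.306, 0.446, 0.440 and 0.575 CPM in controls and at 0.433, 0.211, 0.291, 0.269 and 0.700 CPM after restraint (log2 -0.20 ± 0.46, edgeR adjusted p = 0.922). The pseudogene Ndufb4c held 124 counts over all libraries, with a log2 fold change of -0.01 ± 0.61. The counting skipped reads with more than one alignment, so reads shared with such copies are missing from the subunits' counts.

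The assembly factors were less abundant and nearer to 0 in their changes. Per kilobase of exon, their control means ran from 7.62 CPM per kb (Ndufaf6) to 39.6 CPM per kb (Ndufaf5). Subunits ran from 0.403 CPM per kb (Ndufa4l2) and 5.45 CPM per kb (Ndufb2) up to 338 CPM per kb (Ndufa4). Of the 8 factors, 6 had values below 0, and 2 were lower at an unadjusted p under 0.05 (25%, against 6.04% of all genes). These were the Q-module chaperone Ndufaf3 and the late-acting factor Ndufaf2.

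Ndufaf3 stood at 44.2, 41.3, 51.9, 42.8 and 38.7 CPM in controls and at 32.4, 40.5, 34.3, 28.9 and 37.9 CPM after restraint. Restraint 2 alone lay above the lowest control (log2 -0.33 ± 0.10, edgeR adjusted p = 0.215). Ndufaf2 stood at 42.7, 41.7, 47.2, 49.5 and 43.2 CPM in controls and at 32.6, 43.9, 35.4, 27.5 and 37.1 CPM after restraint. Restraint 2 again reached into the control range (log2 -0.35 ± 0.11, edgeR adjusted p = 0.216). Ndufaf2 shares 65.7% of its exon bases with B230220B15Rik, which held 21 counts in all.

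Ndufaf4, the partner of Ndufaf3 in Q-module assembly, stood at 55.7, 51.9, 56.3, 56.5 and 54.7 CPM in controls and at 50.4, 69.8, 56.9, 60.9 and 58.8 CPM after restraint (log2 0.11 ± 0.09, edgeR adjusted p = 0.687). Ndufaf8, the partner of Ndufaf5, which modifies Ndufs7, stood at 9.68, 10.7, 12.9, 9.78 and 10.2 CPM in controls and at 7.79, 11.5, 7.42, 6.50 and 12.8 CPM after restraint (log2 -0.21 ± 0.17, edgeR adjusted p = 0.709). Both pairs of groups overlapped. Ndufaf1, Ndufaf5 and Ndufaf7, a methyltransferase, lay between -0.09 and -0.04, and Ndufaf6 at 0.14.

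Exon length went with the fold change among members. Over the 38 subunits and 8 assembly factors, log2 fold change and log2 exon length had a Pearson r of 0.605 across genes, which share the same 10 libraries. All 9 subunits under 1000 bases were below 0 with a median of -0.40, while the 1292 genes of that length had a median of -0.18 and 65.2% below 0. All 15 subunits between 1000 and 2000 bases were below 0 as well (median -0.23, all genes of that length -0.03). Between 2000 and 4000 bases the 9 subunits had a median of -0.14 (all genes -0.00), and at 4000 bases or more the 5 subunits had a median of 0.01 (all genes 0.01).

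Assembly factors lay 0.15 log2 units above subunits on average, and 0.11 above them at equal exon length in a linear description over the 46 genes. When each library's own trend of log2 CPM on exon length was removed in the fit, the medians became -0.13 for subunits and -0.06 for assembly factors. By edgeR's test 4 subunits then fell, Ndufv1 by 0.45, Ndufs3 by 0.59 and Ndufb6 by 0.57 (adjusted p = 0.0262 each) and Ndufa2 by 0.61 on the log2 scale (adjusted p = 0.0434). These were 8.51% of members, against 0.26% of all genes, and 16 members (34.0%) were lower at an unadjusted p under 0.05, against 6.3%. In that fit the log2 fold change of the 46 genes still had a Pearson r of 0.390 with log2 exon length.

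**Figure D3:**
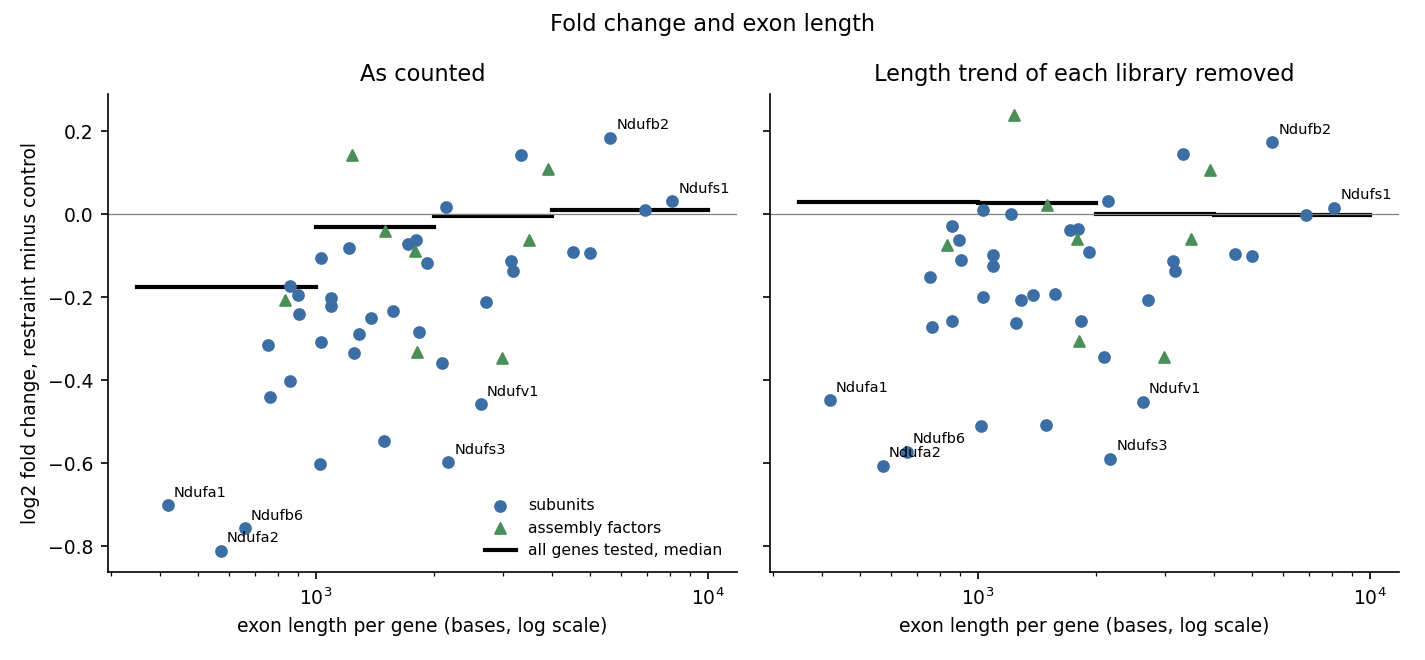
Log2 fold change (y axis, restraint minus control) against exon length in bases (x axis, log scale) for subunits (circles) and assembly factors (triangles), with the median of all genes tested in each length range as a black line, as counted (left) and with each library's length trend removed (right). Short subunits reach -0.81 on the left and -0.61 on the right, and Ndufv1 and Ndufs3, both above 2000 bases, hardly move between panels.

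Members also varied together from library to library. The mean log2 CPM of the subunits was 6.84 ± 0.13 (SD, n = 5) in controls and 6.58 ± 0.22 after restraint, with restraint 4 (6.32) and restraint 1 (6.40) lowest and control 3 (7.02) highest. That of the assembly factors was 5.00 ± 0.09 and 4.89 ± 0.14. The subunits lay above the assembly factors by 1.84 ± 0.08 in controls and by 1.69 ± 0.12 after restraint, with overlapping groups.

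The length slope of a library, its log2 CPM per doubling of exon length over 8465 other genes, was most positive in restraint 4 (0.0933), control 2 (0.0677) and restraint 1 (0.0638). These were the 2 restraint libraries and the control with the lowest subunit mean of their groups. At similar slopes, control 2 had a subunit mean of 6.68 and restraint 1 of 6.40, and control 3 (slope -0.0672) had 7.02 and restraint 2 (slope -0.0675) 6.82. Restraint 5 and control 5 had equal subunit means (6.75) at slopes of -0.0460 and -0.0285. Without restraint 4 the subunit median was -0.12, and without restraint 1 or restraint 4 the difference between the class medians was -0.07 in place of -0.14. The pairs above are single libraries, and restraint 1 stood apart on the first principal component. The part of the length slope in the lower subunit values was not tested.

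**Figure D4:**
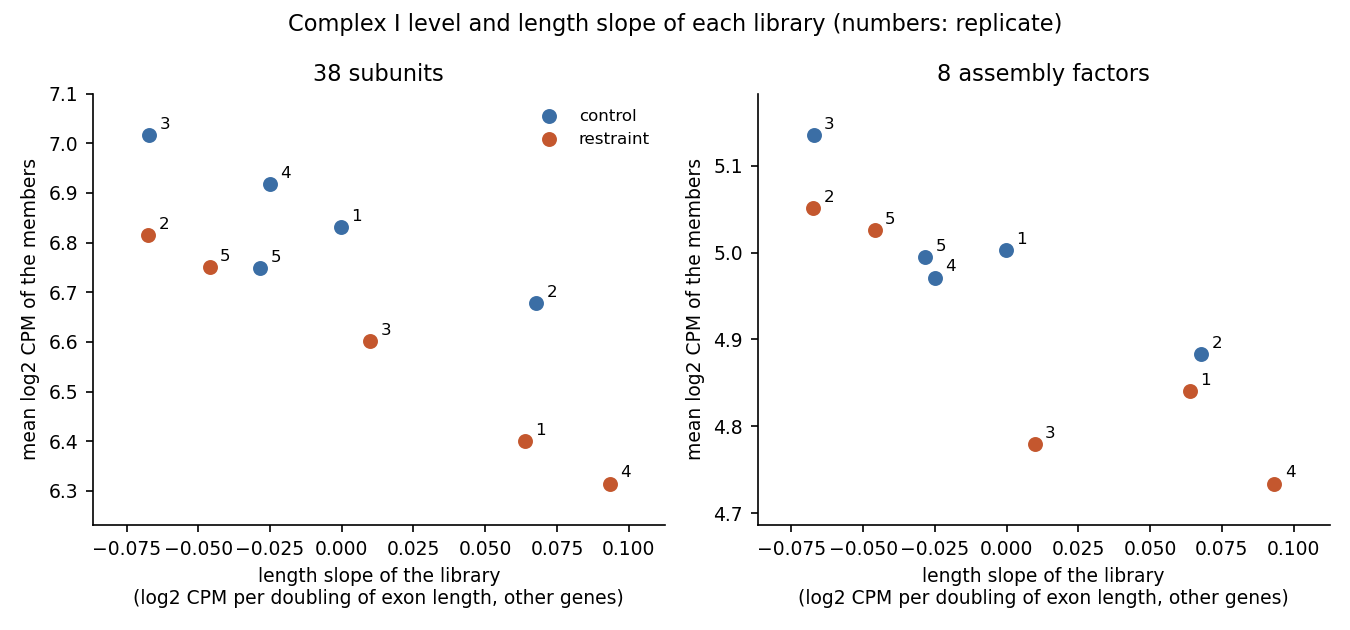
Mean log2 CPM (y axis) of the 38 subunits (left) and 8 assembly factors (right) against the length slope of each library (x axis, log2 CPM per doubling of exon length), 1 point per library, numbered by replicate. In the left panel restraint 1 and 2 lie below the controls of nearest slope (6.40 against 6.68 and 6.82 against 7.02), while restraint 5 and control 5 are level at 6.75.

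Ndufc2 and Ndufb11, both membrane-arm subunits, had the highest correlation with the mean of the other subunits over the 10 libraries of both groups (Pearson r = 0.956 and 0.948), followed by the assembly factor Ndufaf3 (0.948) and Ndufa4 (0.948). Ndufb2 ran against that mean (r = -0.850), Ndufa10 had r = -0.322, and Ndufs1 had r = 0.030. The order differed within groups of 5, where Ndufb7 (0.987) and Ndufa8 (0.984) led in controls and Ndufa4 (0.995) and Ndufa1 (0.991) after restraint. Ndufb2 was negative in both groups (-0.768 and -0.809), while Ndufa10 (-0.205 and 0.414) and Ndufs1 (0.465 and -0.0343) changed sign between them. In each library all members share that library's depth and length slope, and these values are a description with no test.

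The complex I genes of the mitochondrial genome did not share the lower values. Of 6 tested, 5 were above 0 with a median of 0.15, and 0 passed an unadjusted p under 0.05 in either direction. With length trends removed the median was 0.26 and 3 were higher at an unadjusted p under 0.05, against 6.6% of all genes in that fit. mt-Nd1 was at 307 ± 28.6 CPM (SD, n = 5) in controls and 347 ± 49.3 CPM after restraint (log2 0.17 ± 0.10), and mt-Nd2 at 141 ± 20.6 and 165 ± 31.2 CPM (log2 0.23 ± 0.13). The exception was mt-Nd3, at 2.01 ± 0.574 and 1.65 ± 0.530 CPM (log2 -0.29 ± 0.26). How mRNA of the mitochondrial genome came into these libraries was not tested. Its values need not describe the same cells as those of nuclear mRNA.

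Complex I assembly factors with other names had a median of -0.03 over the 14 tested. Of these, 3 were lower at an unadjusted p under 0.05 (21.4%, against 6.04% of all genes). Nubpl, which delivers iron-sulphur clusters to complex I, had a log2 fold change of -0.56 ± 0.17, Aifm1 of -0.30 ± 0.10 and Tmem70 of -0.23 ± 0.11 (edgeR adjusted p = 0.211, 0.216 and 0.401). Ecsit, part of the intermediate assembly complex of the membrane arm, was at 0.17 ± 0.09.

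Nuclear subunits of complexes II to V resembled complex I in their counts. Of 43 tested, 40 were below 0 with a median of -0.21. At an unadjusted p under 0.05, 16 were lower (37.2%), beside 15 of the 38 subunits above (39.5%) and 6.04% of all genes. With length trends removed, edgeR called 4 of the 43 lower at an adjusted p under 0.05 (9.3%). This compares with 4 of the 38 subunits (10.5%) and 0.26% of all genes. Ndufa4 and Ndufa4l2 are among the 38, and neither was lower at either threshold. Among 11 regulators of mitochondrial gene expression the median was 0.06. Tfb2m, a transcription factor of the mitochondrial genome, was at 0.34 ± 0.10 and Yy1 at -0.22 ± 0.08 (edgeR adjusted p = 0.189 and 0.293), while Ppargc1a and Nrf1 both lay at 0.06.

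Promoters are shown for 4 members that stand for the classes above, the core subunits Ndufv1 and Ndufs3 with groups apart, the accessory subunit Ndufa8, and the assembly factor Ndufaf8. Each runs from 170 bases before to 30 bases after the RefSeq start site (GRCm38.p6), 5′ to 3′ along the gene, with capitals where one of the searched motifs matches. Positions are chr19:4012726-4012925 (minus strand) for Ndufv1, chr2:90904692-90904891 (minus) for Ndufs3, chr2:36049309-36049508 (minus) for Ndufa8 and chr11:120098764-120098963 (plus) for Ndufaf8.
Ndufv1: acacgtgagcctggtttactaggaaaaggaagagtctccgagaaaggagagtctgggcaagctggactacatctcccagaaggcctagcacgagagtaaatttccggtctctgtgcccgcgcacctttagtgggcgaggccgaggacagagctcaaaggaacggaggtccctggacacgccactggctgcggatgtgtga
Ndufs3: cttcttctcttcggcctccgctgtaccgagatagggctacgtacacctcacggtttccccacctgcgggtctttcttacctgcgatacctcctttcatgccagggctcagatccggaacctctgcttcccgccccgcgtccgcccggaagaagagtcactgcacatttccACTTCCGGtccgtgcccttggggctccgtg
Ndufa8: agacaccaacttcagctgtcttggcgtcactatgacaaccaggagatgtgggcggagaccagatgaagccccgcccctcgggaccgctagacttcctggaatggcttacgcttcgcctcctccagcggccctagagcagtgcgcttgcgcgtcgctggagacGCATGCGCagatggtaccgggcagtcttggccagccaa
Ndufaf8: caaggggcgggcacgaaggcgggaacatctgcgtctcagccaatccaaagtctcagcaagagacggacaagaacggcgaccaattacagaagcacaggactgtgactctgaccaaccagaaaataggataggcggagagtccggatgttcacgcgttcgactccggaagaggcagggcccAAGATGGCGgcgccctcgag

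Ndufs3 holds an ETS-type match, Ndufa8 an NRF1-type match and Ndufaf8 a YY1 match, and Ndufv1 holds none of the motifs searched. RefSeq promoter windows of 250 bases before to 50 after the start were found for 40 of the 47 members, 42 windows in all, and each motif was searched on both strands. The NRF1 motif GCATGCGC, whose matches on opposite strands can overlap, was in 5 of 42 windows (11.9%), against 2.71% of all 32851 windows. The YY1 motif AAGATGGCG was in 6 windows (14.3%), of Ndufa9, Ndufaf8, Ndufc1, Ndufs4, Ndufs6 and Ndufs7, against 1.40%. The ETS motif CCGGAAGT was in 1 window (2.38%), against 3.89%, and the oestrogen-related receptor motif TCAAGGTCA in 0, against 0.423%.

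Windows of members had a median GC content of 59.3%, against 52.7% over all windows. Genes with a YY1 match included the lower Ndufa9 and Ndufc1 (-0.36 and -0.55) and Ndufs7 near 0 (-0.07). Those with an NRF1 match included Ndufa8 (-0.40) and Ndufaf4 (0.11). A match describes letters in a window and is not a measured binding site.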

How the data were processed

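The authors deposited whole-number read counts per gene and library, made with featureCounts 2.0.3 on exons of GENCODE M30 for paired-end input, with no strand, read-pair or multi-mapping option, per the file headers. FastQC, Trimmomatic and STAR are named without versions, with mm10 as build, per the submitters' processing notes, while GENCODE M30 annotates GRCm39. Exon length is the deposited length per gene over all its annotated exons. It is not the length of a single mRNA, which can be shorter, and CPM per kb depends on it. Symbols were matched for 52073 of the 56691 genes.

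Counts were fitted with edgeR 4.0.16 (R 4.3.3; TMM, filterByExpr with at least 10 counts and 15 in all, quasi-likelihood, Benjamini-Hochberg over 18440 genes), control against restraint, 5 libraries each. Alternatives were other scalings and filters, DESeq2 1.42.0, limma 3.58.1, halved counts, a replicate block, removal of length trends (lowess, span 0.3) and leaving out each library. The members and gene lists were chosen with earlier results of these data known. Library values were printed for the 8 subunits and 4 assembly factors with the smallest p, the nuclear core subunits, Ndufa4, Ndufa4l2 and Ndufab1, and up to 4 genes with the smallest p were named per other list, apart from Th, Slc6a3, Aldoc, Aldh1l1, S100b, Ppargc1a and Nrf1, named for their role or sign. A member that is not reported here by name stayed in the fit and the group counts. Matching exons of neighbouring genes were compared by position. A low count of the overlapping gene does not show that reads of the shared stretch were counted for the member.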

Additional observations from a re-analysis of the deposited data

Results flagged for a closer look

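By Dixon's criterion 2 groups held a library far from the other 4, of 44 groups of 5 tested, a count that chance alone gives at about 1 group in 20. Ndufs8 stood at 156.6 CPM in control 3, beside 123.1 to 131.5 CPM in the other controls, which all lay above the 5 restraint libraries. Ndufab1 stood at 89.89 CPM in restraint 5, beside 44.48 to 55.81 CPM in the other restraint libraries.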

How the results depend on the processing

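No setting gave the subunits or the assembly factors a median above 0. Leaving out 1 library at a time, the subunit median ran from -0.30 (without restraint 2) to -0.12 (without restraint 4), that of the assembly factors from -0.11 to -0.05 (-0.05 without control 3 and also without restraint 4), and their difference from -0.20 to -0.07. In these runs edgeR called 0 to 5 members lower (5 without restraint 5, 3 without control 5, 2 without restraint 2) and 0 higher, with 13 to 24 lower and 0 to 1 higher at an unadjusted p under 0.05. Over all genes the runs called 0 to 83 lower and 0 to 9 higher, beside 3 and 1 with all libraries. Genes called lower and higher were 12 and 5 with library size only, 199 and 103 with at least 1 count in all, 192 and 139 with DESeq2, 66 and 21 with limma-voom quality weights, 48 and 20 with length trends removed, and 0 and 0 with robust estimation. Members called lower were 2, 10, 9, 4 and 4 in the first 5 of these.

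Same-numbered libraries did not deviate together (correlations -0.16 to 0.03). The labels state no pairing by number, and a shared batch of same-numbered libraries was not tested further. With the replicate block 0 genes were called lower and 0 higher, and 18 members were lower at an unadjusted p under 0.05. Of 436 alternative values of single members, 389 kept sign and side of the threshold, 36 passed it and 11 changed sign, all in 3 genes near 0. Ndufab1 became -0.00449 with limma-voom, -0.0398 with quality weights, -0.0137 with the replicate block and -0.00303 with length trends removed. Leaving out single libraries moved Ndufab1 over -0.197 to 0.101, Ndufv2 over -0.0487 to 0.0753 and Ndufs1 over -0.0119 to 0.0672. The cause of these shifts was not tested. The median SE over genes tested was 0.136 on the log2 scale.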
